A study of Mus musculus with 2 samples.

Results

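The cytochrome P450 genes were the 100 protein-coding genes of mouse chromosomes 1 to 19 whose symbol is Cyp followed by a digit in GENCODE M21, out of 20807 protein-coding genes on those chromosomes. They were chosen by name and not by any measured value, and fell into 17 families. H1t peaks came from 1 chromatin immunoprecipitation library of spermatogenic cells, prepared with the laboratory's own rabbit antibody to H1t, from 6-week-old ICR mice whose testes supplied the cells. A matching input library with no antibody belongs to the series and was not analysed here. How many animals were pooled is not given in the sources used here, and a peak list holds no expression values against which the germ cell label could be checked.

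Cytochrome P450 enzymes are haem proteins that insert oxygen into small molecules with electrons passed on from a reductase. Families 1 to 4 mostly clear drugs, plant compounds, fatty acids and eicosanoids, have their highest expression in liver, kidney, lung and gut, and sit in tandem arrays of similar genes. The remaining families mostly make or remove steroid hormones, sterols, bile acids, vitamin D and retinoic acid. In the testis, Leydig cells use several of them to make testosterone, and removal of retinoic acid by the CYP26 enzymes helps to set when germ cells enter meiosis. H1t is a linker histone found in spermatocytes and spermatids. The values below say where its peaks lie in these genes and carry no information on whether a gene was expressed.

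With 1 library there is no replicate, so all values are descriptions of that library and no test was made. The list held 72438 peaks on the autosomes. A peak belonged to a gene when its midpoint lay in the gene body or within 10 kb of either end. Peak density is the number of such peaks per 100 kb of that window. A start-site peak has its midpoint within 1 kb of the annotated gene start. Each peak carries a score given by the authors, from 50 upward. Coordinates are those of mm10, counted from 1.

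The promoters below are some of those that a peak overlapped, with a few promoters that have no peak for comparison. Some start-site peaks of the family lay outside the promoter of their gene as drawn here. Each runs from 250 bases before to 50 bases after a RefSeq start on GRCm38.p6, the assembly of mm10, and is written 5′ to 3′ with every CG dinucleotide in capitals. The RefSeq table matched 77 of the 100 genes. In 71 of these the RefSeq start lay within 100 bp of the start used here. The following 4 were overlapped by a peak, over 187 of the 300 bases in Cyp46a1, 279 in Cyp51, 270 in Cyp26a1 and all 300 in Cyp2w1. They differ in their number of CG dinucleotides, with 31 in Cyp46a1, 28 in Cyp51, 26 in Cyp26a1 and 5 in Cyp2w1.
Cyp46a1 promoter (chr12:108334066-108334365, plus strand): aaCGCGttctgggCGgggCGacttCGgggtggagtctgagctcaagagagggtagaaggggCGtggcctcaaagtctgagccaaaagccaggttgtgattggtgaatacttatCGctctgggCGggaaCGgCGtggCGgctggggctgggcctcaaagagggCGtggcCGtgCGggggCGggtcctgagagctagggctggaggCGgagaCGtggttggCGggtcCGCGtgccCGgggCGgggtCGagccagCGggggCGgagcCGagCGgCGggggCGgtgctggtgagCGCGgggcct
Cyp51 promoter (chr5:4104648-4104947, minus strand): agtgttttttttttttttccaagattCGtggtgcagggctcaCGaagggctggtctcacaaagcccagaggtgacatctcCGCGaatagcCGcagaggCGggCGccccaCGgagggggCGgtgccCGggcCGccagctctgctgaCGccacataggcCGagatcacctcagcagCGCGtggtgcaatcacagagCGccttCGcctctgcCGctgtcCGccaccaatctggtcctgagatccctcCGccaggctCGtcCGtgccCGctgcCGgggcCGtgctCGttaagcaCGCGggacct
Cyp26a1 promoter (chr19:37697558-37697857, plus strand): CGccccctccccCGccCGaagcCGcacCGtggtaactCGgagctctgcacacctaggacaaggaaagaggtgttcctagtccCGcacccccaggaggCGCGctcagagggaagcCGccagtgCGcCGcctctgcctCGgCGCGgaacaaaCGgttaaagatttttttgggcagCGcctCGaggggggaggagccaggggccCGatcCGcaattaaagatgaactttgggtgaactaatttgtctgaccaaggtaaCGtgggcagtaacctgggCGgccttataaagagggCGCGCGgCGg
Cyp2w1 promoter (chr5:139352366-139352665, plus strand): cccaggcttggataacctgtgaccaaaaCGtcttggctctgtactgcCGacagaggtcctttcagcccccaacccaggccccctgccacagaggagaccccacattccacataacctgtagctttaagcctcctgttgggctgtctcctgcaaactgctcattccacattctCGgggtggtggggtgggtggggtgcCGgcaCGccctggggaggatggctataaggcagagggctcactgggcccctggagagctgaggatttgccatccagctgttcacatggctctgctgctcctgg

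The next 4 had no peak over them. Cyp2r1, which starts the activation of vitamin D, had 22 CG dinucleotides and Cyp20a1, an enzyme of unknown substrate, had 20, while Cyp1a2, a liver enzyme that clears caffeine, had 3 and Cyp3a11, a main drug-metabolising enzyme of mouse liver, had 2.
Cyp2r1 promoter (chr7:114562923-114563222, minus strand): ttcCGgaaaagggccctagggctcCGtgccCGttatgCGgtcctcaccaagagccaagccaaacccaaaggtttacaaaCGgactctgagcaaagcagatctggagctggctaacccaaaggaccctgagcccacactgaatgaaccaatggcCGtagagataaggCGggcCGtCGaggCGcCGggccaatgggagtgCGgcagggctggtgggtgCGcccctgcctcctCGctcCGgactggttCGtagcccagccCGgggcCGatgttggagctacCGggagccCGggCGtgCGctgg
Cyp20a1 promoter (chr1:60343050-60343349, plus strand): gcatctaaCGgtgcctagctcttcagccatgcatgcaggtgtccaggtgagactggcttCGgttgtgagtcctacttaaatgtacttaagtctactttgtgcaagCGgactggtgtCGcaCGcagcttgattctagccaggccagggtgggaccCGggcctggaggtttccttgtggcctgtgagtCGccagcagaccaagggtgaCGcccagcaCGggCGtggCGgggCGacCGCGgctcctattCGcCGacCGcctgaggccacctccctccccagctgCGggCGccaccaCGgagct
Cyp1a2 promoter (chr9:57683606-57683905, minus strand): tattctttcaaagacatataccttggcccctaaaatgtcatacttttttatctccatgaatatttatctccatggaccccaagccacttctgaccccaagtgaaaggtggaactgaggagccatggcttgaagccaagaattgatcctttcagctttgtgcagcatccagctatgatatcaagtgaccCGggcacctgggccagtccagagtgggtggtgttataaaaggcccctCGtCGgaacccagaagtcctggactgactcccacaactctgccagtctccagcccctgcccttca
Cyp3a11 promoter (chr5:145879805-145880104, minus strand): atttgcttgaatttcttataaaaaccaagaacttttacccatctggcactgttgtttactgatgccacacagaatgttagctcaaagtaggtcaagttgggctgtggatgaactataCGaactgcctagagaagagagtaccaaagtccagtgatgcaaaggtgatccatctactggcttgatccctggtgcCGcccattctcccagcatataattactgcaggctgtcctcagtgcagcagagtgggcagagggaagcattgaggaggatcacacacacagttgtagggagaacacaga

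P450 genes carried more H1t peaks around them than the typical coding gene and fewer at their starts. Their median density was 3.63 peaks per 100 kb (quartiles 1.45 and 7.10), against 2.60 over all coding genes (quartiles 0 and 4.90). A peak in the body or flanks was found for 76 of the 100 P450 genes, while 69.9% of all coding genes had one. A peak in the body was found for 49 of the 100, against 48.9% of all coding genes, which is nearly the same share. A start-site peak was found for 14 of the 100, against 24.2% of all coding genes.

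The spread between members was wide. No peak was found for 24 members, 1 peak for 27, 2 to 4 peaks for 36 and 5 or more for 13, against 30.1% of all coding genes with none and 10.4% with 5 or more. Density was above the median of all coding genes in 63 members. It reached 10 or more per 100 kb in 13% of members and in 7.93% of all coding genes. Each peak counted once, the windows of the family held 207 different peaks in 4.50 Mb, or 4.60 per 100 kb, against 2.71 per 100 kb over the merged windows of all coding genes. Only 8 of these peaks lay in the windows of 2 members, so shared peaks add little to the counts.

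**Figure D1:**
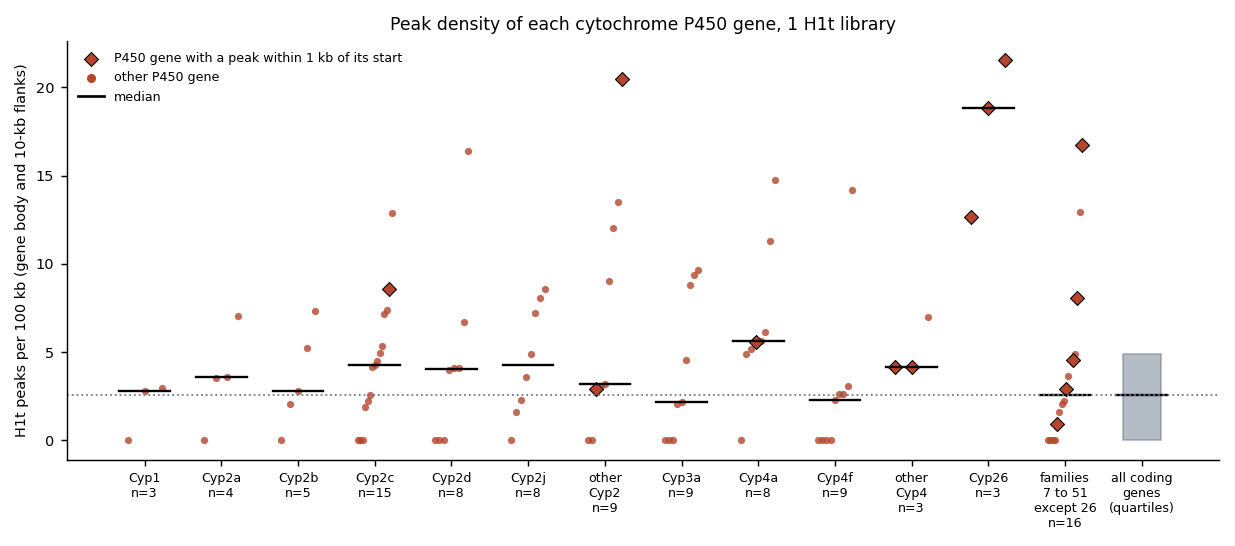
Peak density of each P450 gene (points, peaks per 100 kb over the gene body and 10-kb flanks) by subfamily, with the quartiles of all coding genes as a box and medians as black lines. The 3 Cyp26 genes sit between 12.6 and 21.6, the median of the 8 Cyp4a genes is 5.62, and the dotted line marks the median of all coding genes, 2.60.

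Gene length alters such counts, so members were also set beside coding genes of their own length class. Below 10 kb the median density was 4.11 in 23 P450 genes and 3.80 in all coding genes. Between 10 and 30 kb it was 2.90 in 45 P450 genes and 2.72 in all coding genes. The gap was wider between 30 and 60 kb, with 4.88 in 25 P450 genes and 1.89 in all coding genes, and at 60 kb or more, with 3.62 in 7 P450 genes and 1.90 in all coding genes. Start-site shares were closest in the shortest genes, at 17.4% of P450 genes and 18.3% of all coding genes below 10 kb. They were 15.6% and 22.1% between 10 and 30 kb, and 28.6% and 35.8% at 60 kb or more. Between 30 and 60 kb 1 of the 25 P450 genes had a start-site peak (4%), against 27.1% of all coding genes. Of these 25 genes, 20 belong to the Cyp2c, Cyp2j and Cyp3a subfamilies.

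The retinoic acid enzymes were among the densest of the family. All 3 Cyp26 genes had a start-site peak, and their densities were 21.6 for Cyp26c1, 18.8 for Cyp26b1 and 12.6 for Cyp26a1. These enzymes hydroxylate retinoic acid and so end its signal; Cyp26b1 is the member known to keep fetal male germ cells out of meiosis. Cyp26b1 (chromosome 6, 84571414 to 84593908) had 8 peaks, 7 of them in the body, at 55, 4728, 6076, 8789, 10060, 14122 and 20375 bp from its start. Their scores ran from 53.58 to 99.26, so the gene held many peaks of moderate score rather than a single strong one.

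Cyp26c1 and Cyp26a1 are neighbours on chromosome 19 (37685581 to 37693398 and 37697798 to 37701536), and the 2 windows share 3 peaks. These are all the peaks counted for Cyp26a1, of which 1 lay in its own body, so the 2 densities are not separate. The strongest peak of Cyp26c1 had a score of 174.09 at 1854 bp from its start, and 2 more lay in its coding sequence with scores of 86.05 and 77.47. The start-site peak of Cyp26a1 was 1606 bp wide, had a score of 153.22 and covered 270 of the 300 bases of the promoter printed above. Counted once, the family's peaks came to 17.8 per 100 kb, against 2.71 over all coding genes. Coding GC content was 64.2% in Cyp26c1, 59.8% in Cyp26b1 and 56.4% in Cyp26a1, against a median of 52.2% over all coding genes; its part in the result was not tested.

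Genes that make or receive retinoic acid, which are not P450 genes, were counted in the same way. A peak was found for 8 of these 9 genes and a start-site peak for 4, against 69.9% and 24.2% of all coding genes, with a median density of 3.53, against 2.60. The retinoic acid receptor gene Rarg (9.39) and the receptor gene Rara (8.94) were the densest. A list of 9 genes is too short to set such shares apart.

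A peak was found for all 3 vitamin D enzymes, where 69.9% of all coding genes had one, and 3 genes are too few to set these shares apart. Cyp24a1, which inactivates the hormone, had a single peak in its window, placed 55 bp after its start with a score of 144.14. Cyp27b1, which makes the active hormone, had a peak of score 63.42 at 881 bp after its start and a stronger one of 153.28 upstream, at -6714 bp. The start of another coding gene, Eef1akmt3, lies 6737 bp from that of Cyp27b1. Whether the stronger peak belongs to that gene was not tested. Cyp2r1 had 3 peaks, none of them in the body, the nearest lying upstream at -3403 bp from its start with a score of 95.08. The start of Cyp24a1 lies 717 bp from that of Pfdn4, a chaperone subunit gene, so its start-site peak cannot be given to either gene alone.

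None of the 6 enzymes of steroid hormone synthesis had a start-site peak, where 24.2% of all coding genes had one, and 6 genes are too few to set these shares apart. Cyp17a1, which makes androgen precursors in Leydig cells, and Cyp11b2, the aldosterone synthase, had no peak within 10 kb. Cyp11a1, which starts all steroid synthesis by cutting the cholesterol side chain, had 2 peaks, both downstream of the gene with scores of 51.00 and 61.63. Cyp19a1, the aromatase that makes oestrogen, had 1 peak in its body at 91152 bp from its start and 1 peak upstream at -4578 bp, with scores of 74.38 and 50.60. Cyp11b1, which makes corticosterone, had 1 peak in coding sequence with a score of 62.07. Cyp21a1, an adrenal steroid hydroxylase of 3214 bp, had 3 peaks, the strongest in its coding sequence with a score of 95.57. The median of the 6 genes was 2.64 peaks per 100 kb, close to the 2.60 of all coding genes.

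Other steps of steroid synthesis and the electron carriers of P450 enzymes were counted as well, together with the prostanoid synthase genes Tbxas1 and Ptgis. By the naming rule used here none of these genes is a member. Of these 13 genes 6 had a peak, against 69.9% of all coding genes, and the median density was 0, against 2.60. Ptgis had 5 peaks, 1 of them at its start, and Tbxas1 had no peak. For 3 of the 13 there was a start-site peak, a share near the 24.2% of all coding genes. The highest density was that of Fdxr (17.2), the reductase that feeds mitochondrial P450 enzymes. Next came Cyb5r3 (10.2), which passes electrons to cytochrome b5. Of 11 regulators of P450 genes 7 had a peak, a share near the 69.9% of all coding genes, and 5 a start-site peak, against 24.2%, with a median density of 1.21, against 2.60. The densest was Nr5a1 (14.3), the steroidogenic factor of gonad and adrenal. Lists of 13 and 11 genes are too short to set such shares apart.

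Among the sterol and bile acid enzymes, Cyp46a1 differed from the rest. Cyp46a1, the cholesterol hydroxylase of neurons (chromosome 12, 108334381 to 108362234), had 8 peaks and 16.7 per 100 kb. Its start-site peak lay 72 bp after the start with a score of 52.82, and the strongest of its 7 body peaks had 107.3. The other 6 genes of this group ran from 0 to 4.59. Cyp51, the lanosterol demethylase of cholesterol synthesis that is abundant in spermatids, had a start-site peak of 52.53 at 96 bp and a second peak of 84.48 in its body. Cyp39a1, an oxysterol hydroxylase, had a single peak of 57.71 at -485 bp, just upstream of its start, and the start of Slc25a27 lies 211 bp from that start. Cyp7a1, the rate-limiting enzyme of bile acid synthesis, had no peak. Cyp7b1, an oxysterol hydroxylase with a gene of 171389 bp, had 4 intronic peaks, of which the strongest had a score of 273.11 at 148251 bp from its start. Cyp8b1, which sets the ratio of bile acids, had 1 peak downstream (58.33) and Cyp27a1, which starts the acidic pathway of bile acid synthesis, had 1 upstream (85.68).

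**Figure D2:**
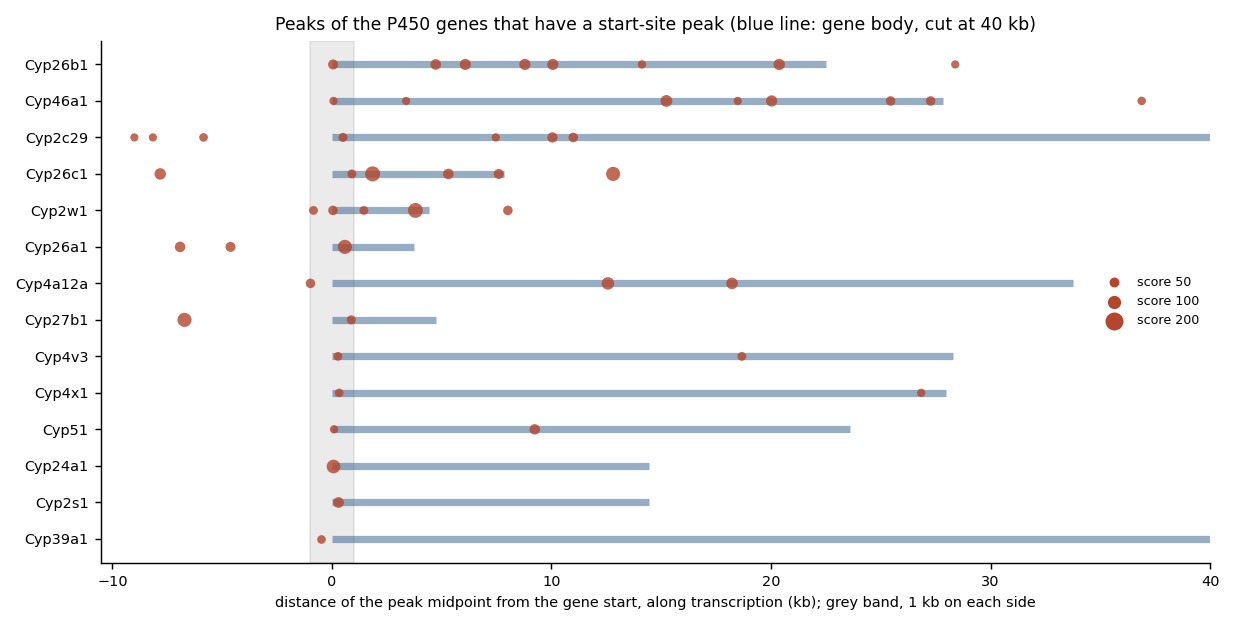
Peaks (red, area by the authors' score) of the 14 P450 genes with a start-site peak, by distance of the peak midpoint from the gene start in kb; blue lines are gene bodies. Cyp26b1 and Cyp46a1 carry 7 peaks each along their bodies, while Cyp24a1, Cyp2s1 and Cyp39a1 have a single peak, at the start.

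The 14 genes with a start-site peak were unevenly spread over the families. Outside families 1 to 4 they were 8 of 19 genes (42.1%), and within families 1 to 4 they were 6 of 81 (7.41%), against 24.2% of all coding genes. This division was made after the values were seen. The 6 were Cyp2c29, Cyp2s1, Cyp2w1, Cyp4a12a, Cyp4v3 and Cyp4x1, and 4 of the 14 lie in the gene clusters described below. Cyp2w1, a gene of 4417 bp with 20.5 peaks per 100 kb, the second highest density of the family, had 2 start-site peaks of 60.6 and 69.16, at -840 and 46 bp from its start, and a peak of 171.17 in its coding sequence. The start of Cox19, an assembly factor of cytochrome oxidase, lies 1199 bp from that of Cyp2w1. Cyp2s1, which acts on retinoids and lipids in epithelia, had 1 peak of 89.19 at 286 bp from its start. Cyp4v3, a fatty acid hydroxylase of the eye and other tissues, had a start-site peak of 59.03 at 279 bp, and Cyp4x1, an enzyme of the brain, had 56.12 at 331 bp. Cyp4a12a, a renal fatty acid hydroxylase, had 70.52 upstream at -977 bp. The start-site peak of Cyp2c29, a liver enzyme, had 63.82 at 505 bp and also lies inside the annotated pseudogene Cyp2c53-ps, so it cannot be given to either alone. These scores, from 56.12 to 89.19, were all below 100. Start-site peaks lay on the transcribed side in 12 of 15 cases (80%), against 78.5% over all coding genes.

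P450 promoters were mostly poor in CG dinucleotides, and a start-site peak was most frequent in the few that were rich in them. Of 77 matched P450 promoters only 10 had 10 or more CG dinucleotides (13.0%), against 60.2% of 15687 matched promoters of all coding genes; the median was 3 in P450 genes and 15 in all coding genes. A start-site peak was found for 5 of those 10 genes (50%), against 34.3% of all coding genes with such promoters. With 4 to 9 CG dinucleotides it was found for 3 of 17 (17.6%, against 14.5%), and with 3 or fewer for 2 of 50 (4%, against 5.10%). The 2 were Cyp27b1 and Cyp2c29; in both the peak lay outside the tabulated promoter, and for Cyp2c29 the RefSeq start is 17680 bp from the annotated one. The 5 genes with a CG-rich promoter and no start-site peak were Cyp1b1, Cyp20a1, Cyp27a1, Cyp2r1 and Cyp4f39.

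Of the 7 promoters that a peak overlapped, 5 had 10 or more CG dinucleotides. Base composition moves with these counts, with a median promoter GC content of 61.2% in the 10 matched members with a start-site peak and 49% in the 67 without, and its part in the result was not tested. CG was searched as these 2 letters, which read the same on both strands.

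**Figure D3:**
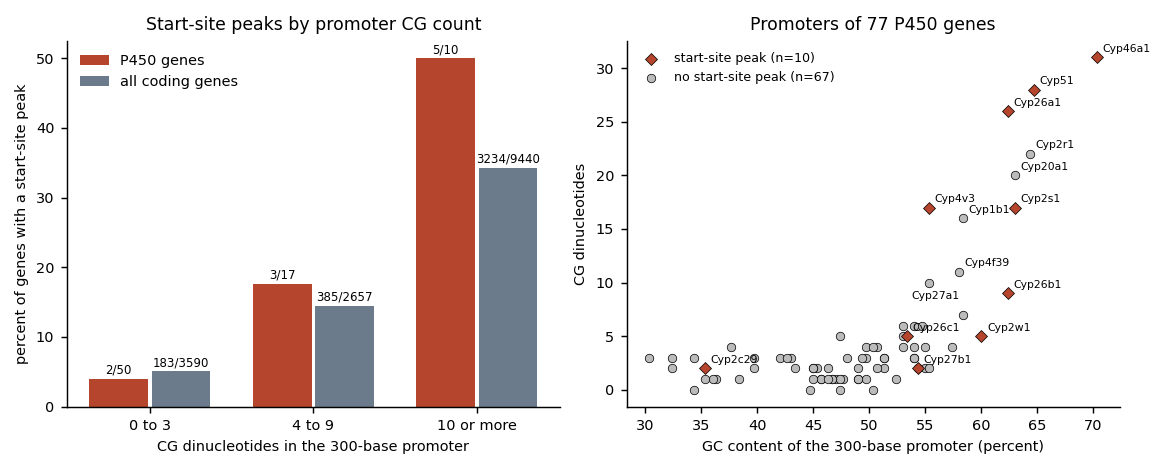
Left, percent of genes with a start-site peak by the number of CG dinucleotides in the 300-base promoter, for P450 genes and all coding genes, with counts over the bars. Right, GC content (percent) and CG count of 77 P450 promoters; 5 of the 10 promoters with 10 or more CG dinucleotides had a start-site peak.

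Each peak was put in a single part, start sites first. The other parts therefore leave out peaks within 1 kb of a gene start of the same set. Coding sequence of the P450 genes held 14 peaks in 12 genes, with scores from 51.55 to 171.17. These were 6.76% of the 207 peaks, against 11.9% over all coding genes. Start sites held 7.25%, against 14.5%, and introns 44.4%, against 53.8%. Flanks held 24.6% downstream and 15.0% upstream, against 8.36% and 7.34%, and the few remaining peaks lay in untranslated regions and other exons. These shares follow unlike rules. A flank peak of a P450 gene stayed a flank peak when it lay in the body or at the start of another coding gene. Over all coding genes such a peak was counted in that other gene. P450 genes differ from all coding genes in length and in how close their neighbours lie, which also moves these shares. Of the 82 flank peaks, 12 lay in the body of another coding gene.

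Scores of P450 peaks were close to those of other genes. The median score was 76.31 (quartiles 58.19 and 100.3), against 69.95 over the peaks of all coding genes and 73.82 over all autosomal peaks. The 15 start-site peaks of P450 genes had a median of 63.42, against 70.1 for those of all coding genes. Intronic peaks of P450 genes had a median of 78.11, against 71.3 for those of all coding genes. Median width was 696 bp, against 664 bp.

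**Figure D4:**
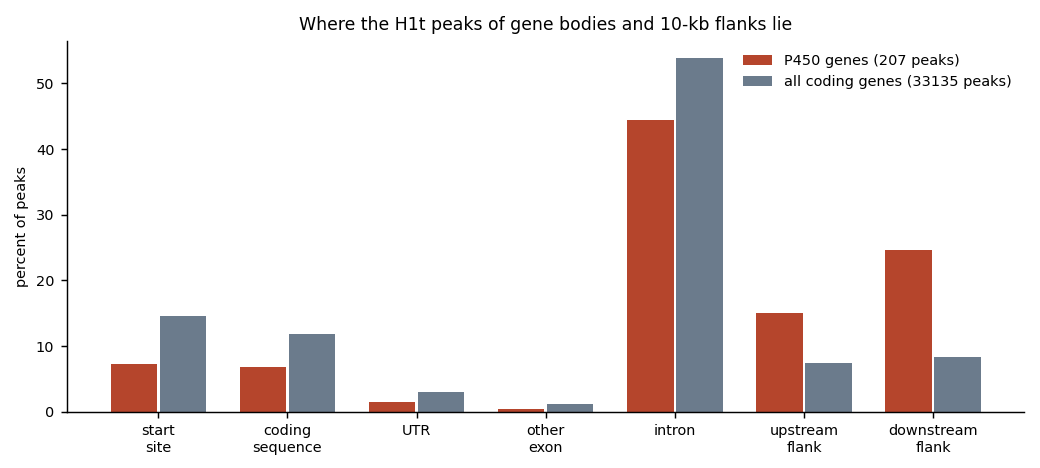
Percent of peaks in each part of genes and their 10-kb flanks, for the 207 peaks of P450 genes and the 33135 peaks of all coding genes. P450 peaks lay in downstream flanks in 24.6% of cases and at start sites in 7.25%, against 8.36% and 14.5% for all coding genes. For P450 genes, flanks include peaks in the bodies or at the starts of other coding genes. In the set of all coding genes they do not.

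The 3 highest scores in the bodies and flanks of P450 genes belonged to the tandem arrays. Genes in these arrays held 144 of the 207 peaks of the family, so such a place is common by number alone. The top value was 442.69, 8.075 kb downstream of Cyp3a41a (chromosome 5, 145684646 to 145687302), followed by 422.93 in an intron of Cyp2j11 and 286.71 in an intron of Cyp4a12b. Cyp3a enzymes clear drugs and steroids, Cyp2j enzymes turn arachidonic acid into epoxides and Cyp4a enzymes hydroxylate the ends of fatty acids. These peaks were broad, at 2657, 2518 and 2075 bp, against the family's median of 696 bp. The fourth was the peak of 273.11 in Cyp7b1, which lies outside the arrays. Among the next were peaks in the downstream flanks of Cyp4a10 (239.14), Cyp3a44 (192.64) and Cyp2c55 (191.49). An intronic peak of Cyp2c68 (176.02) came after them. Of the densest genes not yet named, Cyp2d10, of the subfamily that clears many amine drugs, had 16.4 peaks per 100 kb and Cyp2ab1, an enzyme with no settled substrate, had 13.5.

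Clusters were taken as 3 or more members with gaps of at most 200 kb, which gave 8 clusters with 67 genes. Taken from the first to the last gene, their spans ran from 2.43 peaks per 100 kb in the second Cyp2a and Cyp2b array of chromosome 7 to 8.68 in the Cyp4a array of chromosome 4. The autosomes held 3.02 peaks per 100 kb between their first and last peaks. Of the 8 spans 7 lay above that level.

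The Cyp4a array (chromosome 4, 115106323 to 115647723, with Cyp4b1 and Cyp4x1) held 47 peaks in 541 kb, where chromosome 4 as a whole had 3.40 per 100 kb. Of these peaks 11 lay in coding members, which take 37.8% of the span and held 23.4% of the peaks. Its members ranged from 0 in Cyp4a14 to 14.8 in Cyp4a12b. The Cyp3a array (chromosome 5, 145345279 to 146113287) held 50 peaks in 768 kb, or 6.51 per 100 kb, of which 8 lay in members; Cyp3a25, Cyp3a41b and Cyp3a59 had no peak in their windows. In both arrays the peaks were therefore less frequent inside the members than between them.

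The Cyp2j array (chromosome 4, 96027534 to 96664154) had 39 peaks, or 6.13 per 100 kb, and 51.3% of them lay in members, which take 54.4% of the span. Cyp2j13 (8.57) and Cyp2j11 (8.09) were its densest genes and Cyp2j6 had no peak. The Cyp2c array (chromosome 19, 39007019 to 40187333), whose enzymes clear drugs and fatty acids, was the longest, with 14 genes and 58 peaks at 4.91 per 100 kb; chromosome 19 as a whole had 2.72. Cyp2c66 alone had 12 peaks, 9 of them in its body, which was the highest number of any member. Cyp2c37, Cyp2c40 and Cyp2c69 had none, and the longest stretch without a peak in this array was 126 kb.

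The arrays on chromosome 7 differed from each other. The first, with Cyp2s1, Cyp2b10, Cyp2b13, Cyp2b9 and Cyp2a4, had 33 peaks in 513 kb, or 6.44 per 100 kb. The second, from Cyp2b23 to Cyp2t4, had 12 peaks in 493 kb, or 2.43, and none of them lay in the body of any of its 8 members. Those bodies take only 18.6% of its span. Cyp2a enzymes clear coumarin and nicotine, and Cyp2b10 is the member best known for its induction by phenobarbital. The Cyp2d array of chromosome 15 had 22 peaks at 5.19 per 100 kb. Of these, 3 (13.6%) lay in members, which take a similar 14.4% of the span. The Cyp4f array of chromosome 17, whose enzymes inactivate leukotrienes, had 10 at 3.99. Within the Cyp4f array 5 peaks lay in the downstream flank of Cyp4f16 (14.2 per 100 kb) and none in its body, while Cyp4f37 and Cyp4f39 had none.

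**Figure D5:**
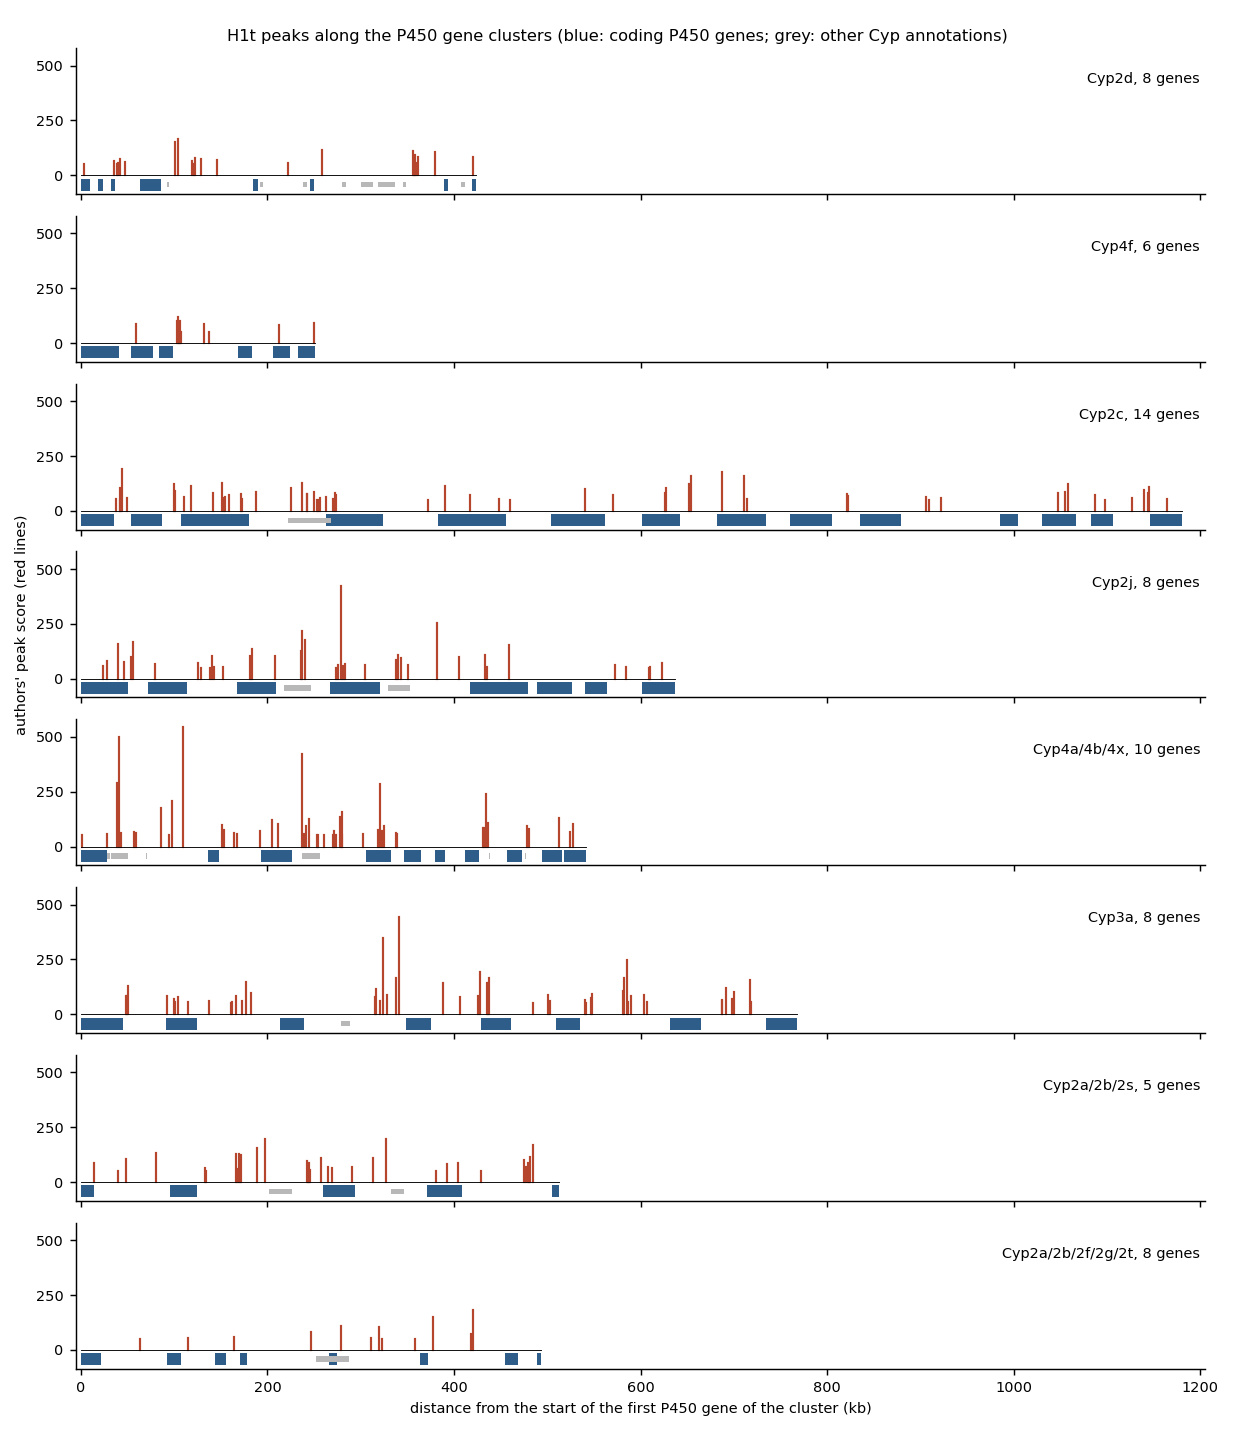
Authors' score of each H1t peak (red lines) along the 8 P450 clusters, by distance in kb from the start of the first gene; blue boxes are coding P450 genes and grey boxes other Cyp annotations. The Cyp4a array holds the strongest peak, with a score of 544.39 between Cyp4x1 and Cyp4a29. The second chromosome 7 array has no peak in its blue boxes, which take 18.6% of its span.

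Near-identical copies limit what can be said of single genes in these arrays. For 23 members the coding sequence of the nearest relative was at least 95% identical, and the treatment of reads that match several copies is not given in the sources used here. Cyp3a41a and Cyp3a41b, at 99.9% identity, had 1 peak and none. Cyp4a12a and Cyp4a12b, at 98.5%, had 3 and 7 peaks, and Cyp2c65 and Cyp2c66, at 96.3%, had 1 and 12. The 23 genes had a median density of 4.52, against 4.16 in the 30 members with no relative in their subfamily, and 1 of the 23 had a start-site peak, against 12 of the 30. Members with a more distant relative were also low in start-site peaks, with 0 of 14 at 90 to 95% identity and 1 of 33 below 90%, where 24.2% of all coding genes had one. Sequence copy number was not measured.

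Members without a peak were found in all 8 arrays and among single genes. The longest were Cyp2c40 (45744 bp), Cyp20a1 (44738 bp), Cyp2c69 (43986 bp), Cyp4f39 (40598 bp) and Cyp2j6 (37524 bp). Of the family 1 genes, which respond to aryl hydrocarbons, Cyp1a2 had none, while Cyp1a1 and Cyp1b1 had 1 peak each, both in coding sequence, with scores of 59.7 and 97.91. The peak of Cyp1b1 lay 1016 bp from its start, just outside the 1-kb limit of a start-site peak.

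Members were low in coding GC content, with a median of 49.6%, against 52.2% over all coding genes. In the class of lowest coding GC (below 45.7%) the median density was 4.22 in 32 P450 genes, which are all at least 10 kb long, against 2.01 in all coding genes of at least 10 kb. In the next class it was 5.06 in 18 P450 genes of that length, against 1.68, and in the middle class 2.82 in 9, against 1.84. The order turned in the upper classes of that length, with 2.26 in 15 P450 genes, against 2.76, in the 4th class and 2.98 in 3, against 5.47, in the highest. A body peak in the 4th class was found for 40% of P450 genes, against 68.0% of all coding genes. Over genes of any length, start-site peaks were less frequent in P450 genes in the 4 lower classes, at 6.25%, 13.6%, 14.3% and 11.1%, against 12.9%, 20.6%, 24.2% and 26.8% of all coding genes. In the class of highest coding GC (58.1% or more) there were 5 members of any length, Cyp1b1, Cyp26b1, Cyp26c1, Cyp2s1 and Cyp2w1. Their median density was 18.8, against 5.44 in all coding genes of that class. The order in this class therefore depends on the length limit. All 5 had a peak in the body and 4 had a start-site peak (80%), against 69.2% and 36.4% of all coding genes in that class. Over all members, the median coding GC was 55.1% in the 14 with a start-site peak and 49.3% in the 86 without.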

How the data were processed

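Germ cells of ICR mice were used for chromatin immunoprecipitation with an H1t antibody after enzymatic fragmentation, per the labels' protocols. Per the submitters' processing notes, Bowtie 1.1.2 and the mm10 build were used. The authors deposited a peak list of 76546 intervals with a score per peak, from 50 to 3100. The peak caller, its threshold and the handling of the input and of multiply matching reads were not given in the sources used here. Read depth is not known.

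Peak midpoints were compared with GENCODE M21, and coding sequences were taken from its transcripts (the longest per gene). Identity between relatives is the share of identical bases in a global alignment over the longer sequence. Promoters are from a RefSeq table of GRCm38.p6. Counting was tested on simulated peaks in 198 genes, and all 198 gave the counts they were made with.

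Genes named are those with a start-site peak, the 10 densest, the 10 with the highest score, the role lists and the 5 longest without a peak; genes named in the account of the clusters and of near-identical relatives and classes of GC content were added after their values were seen. The members and lists were chosen with earlier results of these data known. Software was biopython 1.88, pandas 2.3.3, numpy 2.4.6 and matplotlib 3.10.9 under Python 3.11.15.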

Additional observations from a re-analysis of the deposited data

How the results depend on the processing

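The median density of 3.63 in P450 genes, against 2.60 in all coding genes, stayed above that of all coding genes with peaks at or above the median score (1.94, against 0), any overlap of at least 1 bp (4.04, against 2.66), flanks of 5 kb (3.42, against 1.995) and of 20 kb (3.75, against 2.42), means (4.88, against 3.67) and each peak counted once (4.60, against 2.71). With gene bodies alone both medians were 0. The share with a peak in the window was 57% with peaks at or above the median score, 63% and 87% with flanks of 5 kb and 20 kb, and 49% with gene bodies alone, against 43.8%, 60.8%, 80.9% and 48.9% of all coding genes. The share with a peak in the body was 35% with peaks at or above the median score, against 28.6%. The share with a start-site peak was 4% with those peaks, against 11.0%, and lay from 9% to 18% with other windows, transcript starts and overlap rules, below that of all coding genes in each.

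Of 6 families with 3 or more genes and 8 clusters, 13 of 14 lay above the density of all coding genes. With gene bodies alone, or without peaks below the median score, 12 did so. The clusters lie within these families, so the 14 groups share genes and peaks and are not separate. The groups not above changed: family 1 in the main count, and the Cyp4f and second chromosome 7 arrays for gene bodies. Without peaks below the median score they were family 11 and the second chromosome 7 array. The share of peaks in coding sequence was 6.76%, and 7.27% with peaks at or above the median score. Alternatives chosen after the data were seen gave median densities of 3.20 without the genes with a relative at 95% identity, 3.63 outside families 1 to 4 and 3.62 within them. The last 2 gave start-site shares of 42.1% and 7.41%. No paired analysis was possible because there is 1 library. Background cannot be told apart from weak peaks here, since depth is unknown and the input was not used.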

Other observations

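Pseudogenes of the P450 arrays held peaks unevenly. Cyp2c53-ps, a transcribed pseudogene of 45.7 kb that overlaps the start of Cyp2c29, held 9 peaks, and Cyp4a30-ps (19.3 kb) held 5. Cyp2j14-ps (23.9 kb) held 4 and Cyp2j15-ps (28.7 kb) held 3. None of the 9 pseudogenes of the Cyp2d array and neither Cyp2b27-ps (24.3 kb) nor Cyp2b26-ps (13.8 kb) on chromosome 7 held a peak.

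The strongest peak lay outside the coding members in 7 of the 8 arrays, the Cyp2j array being the exception. It lay 18.1 kb from the nearest member in the Cyp2d array, and 62.0 kb and 34.7 kb in the first and second arrays of chromosome 7. Coding members take from 14.4% of the span in the Cyp2d array to 54.4% in the Cyp2j array. A place outside them is therefore common by area alone. In the Cyp4a array a peak of 2560 bp with a score of 544.39 (chromosome 4, 115214125 to 115216684) lay 26.7 kb from Cyp4a29, with no annotated gene at its midpoint, and a peak of 500.94 lay in the pseudogene Cyp4a28-ps. In the Cyp3a array the second strongest peak, of 3621 bp with a score of 349.05, lay 25.3 kb from Cyp3a41a. Repeat content and copy number of these sites were not measured. These peaks were picked after their scores were seen.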
